A study of Mus musculus with 8 samples.

Results

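Epididymal fat of 2 mouse lines from a selection for growth, DU6 and DU6i, was compared with that of 2 control lines, DUKs and DBA, as the series title sets them. The comparison asked which transcripts lay higher, or lower, in both selected lines than in both controls. Each of the 4 lines was a single pool of RNA from 20 males aged 42 days, and each pool was hybridised to a chip A and a chip B array of an Affymetrix mouse set (8 arrays). A probe set, the group of probes that reads one transcript, was called separated when both selected lines lay above both control lines, or both below. Its size was the smallest of the 4 cross-side log2 ratios, written as a fold. Of 13069 probe sets without the AFFX control prefix, 5267 were above a floor on at least 2 of the 4 arrays of their chip, and 1588 of these were separated (30.1%). The floor, 1022.8 on chip A and 2258.25 on chip B, stands for the noise of the chip. Where one side lay under it, the fold is a lower bound and is written "at least".

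DU6 is known as a line bred for high body weight through long selection, DU6i as an inbred line taken from it, and DUKs as the unselected line of the same origin. DBA is a common inbred strain. This is general knowledge; the labels speak of selected mouse lines and of adiposity, diabetes, insulin and leptin. DU6 and DU6i are therefore relatives and not independent selected lines, and DUKs and DBA differ from each other in origin. One pool holds 20 animals but gives 1 value, so the spread between animals is not seen and no line has a replicate. The group means below are over 2 lines, with the SD between those lines.

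Epididymal fat lies along the epididymis and testis. It holds lipid-filled adipocytes, which store triglyceride and secrete hormones such as leptin, together with a stroma of progenitor cells that lay down collagen matrix, blood vessels and macrophages, and a mesothelial cover. Interferons, made in the defence against infection, switch on a set of genes through short promoter elements. In a whole-tissue RNA pool, fewer cells of a type and less RNA per cell cannot be told apart.

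The arrays had been scaled to one level but not to one range. On chip A the 99th percentile of an array's signals was lowest in DU6 (18810), followed by DBA (23450), then DUKs (27552) and DU6i (34793). On chip B it was 49489 in DU6 and 52203 in DUKs, against 34692 in DU6i and 33622 in DBA. Of the 360 chip A probe sets above 10000 on all 4 arrays, 125 (34.7%) held the chip A order of the lines exactly, against 2.35% of the dimmer ones. On chip B, 163 of 440 such probe sets (37.0%) were higher in both DU6 and DUKs than in both other lines, against 8.28% of the dimmer ones. Either order puts one line of each side high, so a probe set that follows it is not separated. A sign of RNA quality, the signal of the pyruvate carboxylase control probe set for the middle of the transcript as a percent of that for its 3' end, had the same order on chip A. There it was low in DU6 (15.3%) and DBA (19.5%) and high in DUKs (53.9%) and DU6i (54.5%). The chip B arrays gave 12.7% for DU6 and 14.3% for DBA, against 55.6% for DUKs and 45.3% for DU6i. The part of either measure in the results was not tested. The tissue label was borne out by Adipoq and Fabp4, defining adipocyte transcripts with signals from 21044 to 48639 in the 4 pools.

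Most separations were small. Of the 5267 probe sets, 885 (16.8%) were higher in DU6 and DU6i and 703 (13.3%) lower. The median smallest ratio was 0.18 on the log2 scale among the higher ones and -0.17 among the lower ones. At 1.5-fold or more there were 76 higher (1.44%) and 88 lower (1.67%), and at 2-fold or more 9 higher (0.171%) and 29 lower (0.551%). Just inside the 2-fold limit was Cdr2 at a log2 ratio of 1.02, and just outside it Htra3 at 0.995. On the low side an unnamed probe set lay inside at -1.001 and Gapdhs outside at -0.98. At 1.5-fold Mrap lay inside at 0.585 and Cryab outside at 0.581, and on the low side Asns inside at -0.59 and Coro2b outside at -0.57. Among the separated ones, 60 higher and 113 lower had both lines of the dim side under the floor and therefore had to separate.

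Single lines of one side differed by more than the means of the sides did. Among 3974 probe sets above the floor on all 4 arrays of their chip, the median absolute log2 ratio was 0.36 between DU6 and DU6i and 0.36 between DUKs and DBA. It was 0.22 between the means of the sides, and a mean of 2 lines varies less than a single line. The gap between the sides was larger than both differences within a side in 264 of the 885 higher probe sets (29.8%) and in 186 of the 703 lower ones (26.5%). Limma, fitted on every probe set with the spread between the lines of a side, called 0 of 5267 at a Benjamini-Hochberg adjusted p of 0.05 (background 0%). At an unadjusted p under 0.05 it called 252 (4.78%), and the smallest adjusted p was 0.83. With 2 lines on each side, the smallest two-sided p of an exact permutation test is 0.333. The separated probe sets were chosen by their values, and the signals and folds below describe them without a test.

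**Figure D1:**
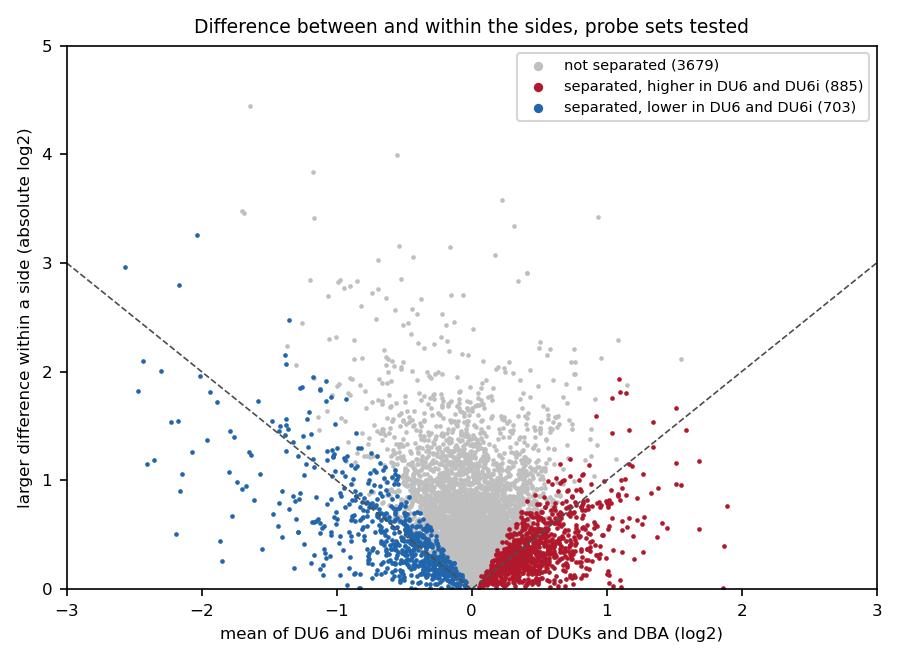
Each point is one of the 5267 probe sets tested, with the mean of DU6 and DU6i minus the mean of DUKs and DBA on the x axis (log2) and the larger of the differences DU6 with DU6i and DUKs with DBA on the y axis (absolute log2). Points under the dashed line differ more between the sides than within them, and the 885 red and 703 blue separated probe sets crowd near 0, with a longer blue tail to the left.

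Genes were then grouped by 43 lists of pathways and cell types, with the brightest probe set standing for each gene. Among the 3333 genes tested, 606 (18.2%) were separated higher in the selected lines and 451 (13.5%) lower, of these 57 (1.71%) and 55 (1.65%) by 1.5-fold and 5 (0.15%) and 17 (0.51%) by 2-fold, and the median difference between the sides was close to 0 (-5.4e-05). These shares are the background for each list. For counts of genes above the floor on all 4 arrays the background was 20.1% higher and 11.8% lower. Lists of macrophage, stromal, matrix, endothelial and fatty acid oxidation genes had larger shares higher and no member lower. Lists of germ cell, interferon-induced, chaperone and male tract genes had larger shares lower. Of 19 mature adipocyte markers 5 were higher and 0 lower, with a median difference of 0.09. That median turned on single lines: it was 0.60 without DU6, 0.24 without DU6i, 0.27 without DUKs and -0.13 without DBA. Without DU6, which leaves a looser rule, 13 of the 19 were higher and 1 lower, against 31.1% and 34.4% of all genes. Without DU6i 6 were higher and 7 lower, against 38.0% and 24.0%, and without DBA 7 and 4, against 36.2% and 27.8%. Without DUKs 9 were higher and 1 lower, against 30.4% and 34.9%.

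**Figure D2:**
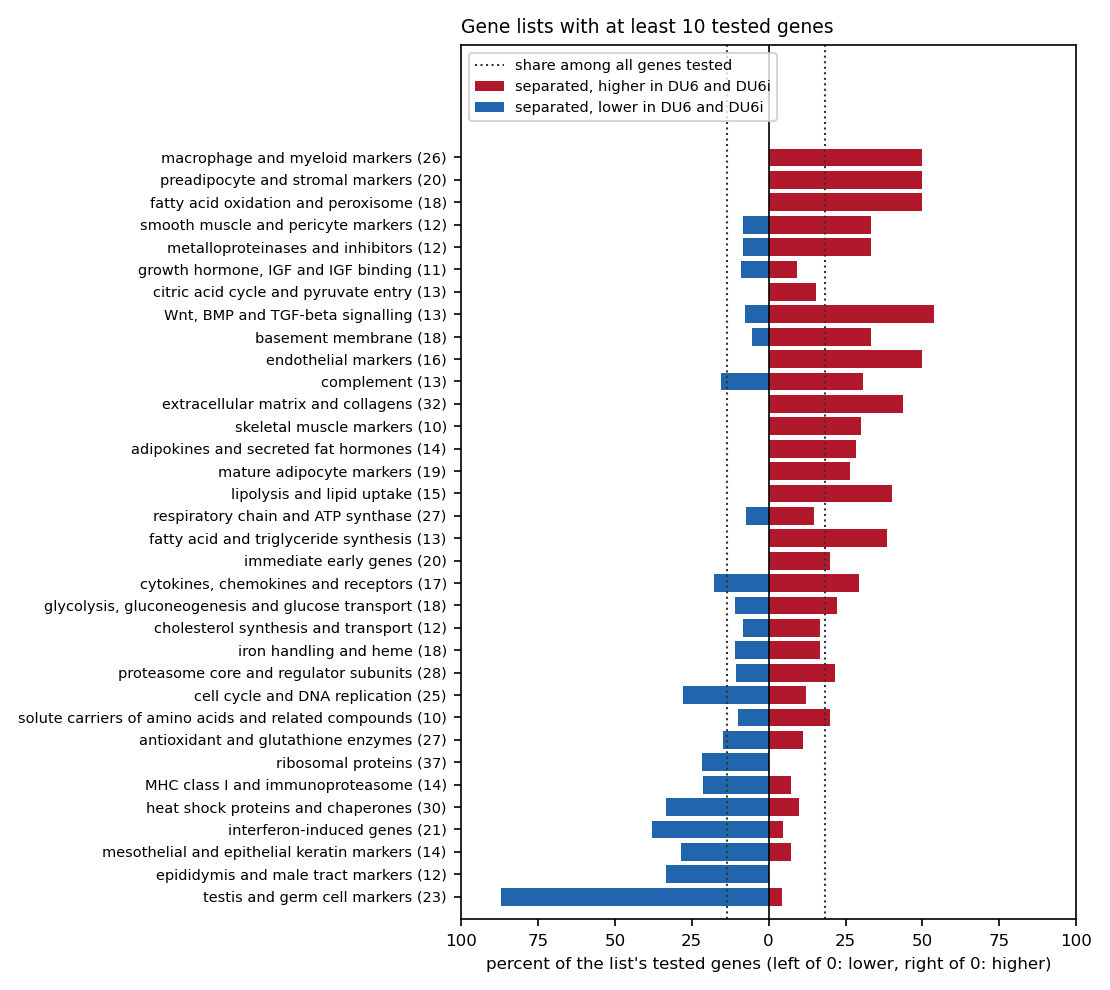
For each list with at least 10 tested genes (number in brackets), bars give the percent of its genes separated higher (red, right of 0) or lower (blue, left) in DU6 and DU6i, and dotted lines give the shares among all genes tested, 18.2% and 13.5%. Lists are ordered by their median difference between the sides, from macrophage markers (0.50) at the top to germ cell markers (-1.38) at the bottom.

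Of 20 tested markers of stromal progenitors, 10 were separated higher in the selected lines and 0 lower, with a median difference of 0.37; of the 18 above the floor on all 4 arrays, 9 were higher. The median was between 0.25 and 0.44 with any one line left out, but 0.59 on chip A alone, 0.015 on chip B alone and 0.0069 without the filter on dim signals. Htra3, a secreted serine protease, had signals of 3846 in DU6 and 3315 in DU6i, against 1089 in DUKs and 1663 in DBA. The sides were 1.99-fold apart, with mean log2 signals of 11.80 ± 0.15 (SD, n = 2 lines) and 10.39 ± 0.43. Sfrp2, a secreted modulator of Wnt signalling made by fibroblasts and preadipocytes, had 3832 and 3420 against 1727 and 1427, 1.98-fold apart. In both genes the selected lines lay close together. Fstl1, a secreted glycoprotein of mesenchymal cells, had 12992 and 19178 against 8986 and 8905. The receptor Pdgfrb had 3537 and 5600 against 2110 and 2991, and the filament protein Vim had 27664 and 25028 against 16545 and 20184. These sides did not overlap, by 1.45-fold for Fstl1 and less for Pdgfrb and Vim.

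Other stromal genes did not separate. Thy1, a surface marker of fibroblasts, had 11537 in DU6 but 5622 in DU6i, against 3102 in DUKs and 5974 in DBA. Pdgfra, the receptor that marks fat progenitors, was brightest in DBA, at 5568 against 2660, 1592 and 2210 in DU6, DU6i and DUKs. Col1a1, a main fibrillar collagen, did not separate by any of its 3 probe sets. Col3a1, another, did not separate on chip B, with 59839 and 45839 against 69038 and 38904, but was 1.21-fold higher on chip A, with 7467 and 7287 against 6036 and 3841. The signal summed over the list was 417433 in DU6 and 321315 in DU6i, against 402947 in DUKs and 287767 in DBA, so the sum overlapped between the sides.

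Of 32 extracellular matrix genes, 14 were higher and 0 lower, with a median of 0.15, and 12 of 28 above the floor on all 4 arrays were higher. The median was between 0.27 and 0.42 with any one line left out, 0.41 on chip A alone and 0.087 on chip B alone. Tnxb, which encodes tenascin-X, a glycoprotein of collagen-rich tissue, had 18542 and 15166 in DU6 and DU6i against 8379 and 9117 in DUKs and DBA on chip B. A second Tnxb probe set, on chip A, had 7915 and 7377 against 4562 and 4559. The sides were apart on both chips, by 1.66-fold and 1.62-fold. Lox, the enzyme that crosslinks collagen and elastin, had 7237 and 6988 against 4226 and 4233, 1.65-fold apart with the lines of each side almost equal. Thbs2, a matrix regulator of collagen fibrils, had 2114 and 2033 and lay under the floor in both controls, at least 1.99-fold apart. Col5a1, Col5a2, Col15a1, Lum and Fn1, 3 collagen chains, a proteoglycan and fibronectin, were also separated, by log2 ratios from 0.41 to 0.55.

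In the basement membrane list 6 of 18 genes were higher and 1 lower, with a median of 0.18 that was 0.53 without DU6 and 0.048 without DU6i. Nid2, which links laminin to type IV collagen, had 5378 in DU6 and 7932 in DU6i against 2037 in DUKs and 2537 in DBA, 2.12-fold apart. Its relative Nid1 had 16482 and 23125 against 11752 and 15793, a gap of 1.04-fold. The laminin chains Lama2, Lamb1 and Lamc1 were higher by small gaps, and Col4a1 and Col4a2 did not separate. Agrn, the proteoglycan agrin, went the other way, with 2360.1 and 2169 against 3241 and 3332.

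Enzymes and signals of tissue remodelling followed in part. Of 12 metalloproteinases and inhibitors, 4 were higher and 1 lower, and of the 9 above the floor on all 4 arrays 3 were higher and 1 lower. Mmp12, the elastase of macrophages, had 2674 in DU6 and 1839 in DU6i and was under the floor in both controls, at least 1.80-fold apart. Adam15, a membrane metalloproteinase, had 7178 and 7459 against 4489 and 3877, 1.60-fold apart. Timp1, an inhibitor of these enzymes, was high in DU6 alone, at 8033 against 2527 to 4269.8 in the other lines. Of 13 tested Wnt, BMP and TGF-beta genes 7 were higher and 1 lower. For 2 of them one side was wholly under the floor, so they had to separate. Of the 10 above it on all 4 arrays 5 were higher and 1 lower. Fzd4, a Wnt receptor, had 2165 and 1743 in the selected lines and was under the floor in the controls, at least 1.70-fold apart. Tgfbi, a matrix protein induced by TGF-beta, had 7169 and 5351 against 3484 and 4486. The lower gene was Bmp4, a BMP ligand, with 1383 and 1358 against 1978 and 2357.

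Macrophage and myeloid markers formed the list with the highest median difference, 0.50. Of 26 tested, 13 were higher and 0 lower, and of the 20 above the floor on all 4 arrays, 9 were higher. Lgals3, a lectin of activated macrophages, had 27658 and 19661 in DU6 and DU6i against 11603 and 8962 in DUKs and DBA, 1.69-fold apart. Csf1r, the receptor on which macrophages depend for survival, had 13955 and 10082 against 6720 and 6452. The sides did not overlap in either gene, and DU6 was the brightest pool in both. Adgre1, the F4/80 antigen, had 4322 and 6025 against 3161 and 2736, and Cd68, a lysosomal protein of macrophages, had 3861 and 3139.9 against 2442 and 1436. Mrc1, the mannose receptor, had 12807 and 16110.0 against 9567 and 7496. The chemokine Ccl6 had 3016 and 1990.0 and was under the floor in both controls, at least 1.95-fold apart, and Ccl9 had 10009 and 7715 against 5825 and 3327.

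The order of the pools was not the same for every macrophage gene. The list median, relative to the mean of the 4 pools, was 0.37 in DU6, 0.12 in DU6i, -0.11 in DUKs and -0.47 in DBA. After quantile normalization 15 of 26 genes were higher and 1 lower, against 20.6% and 13.7% of all genes in that setting. Without DUKs the median difference was 0.80, and without any other single line it was between 0.38 and 0.53; without the filter on dim signals it was 0.27. The summed signal was 258320.0 in DU6 and 239956 in DU6i against 220741 in DUKs and 161304 in DBA, and did not overlap. Ptprc, the CD45 antigen of all white cells, did not separate, with 6133 and 5249 against 8285 and 4277. Nor did Lyz2, a lysozyme, which on chip A followed the order of the array range. Of 6 lymphocyte and NK genes tested 1 was higher and 0 lower. That gene was Ighm, the heavy chain of IgM, with 13173 and 16523 against 7881 and 5069 by one probe set (1.67-fold) and 47733 and 28829 against 24835 and 23597 by another (1.16-fold).

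Endothelial markers were higher in 8 of 16 genes and lower in 0, and in 7 of the 10 above the floor on all 4 arrays; their median was 0.18, and it was 0.34 without DUKs, 0.32 without DU6, 0.12 without DBA and 0.053 without the filter on dim signals. Tek, the angiopoietin receptor, had 3139 and 2364 against 1416 and 1471, 1.61-fold apart. The other gaps were small. Kdr, the main VEGF receptor, had 13627 and 13593 against 11083 and 10379, and Cdh5, the cadherin of vessel walls, had 8936 and 10196 against 7938 and 6673. Pecam1, another vessel marker, did not separate, with 2388 in DU6i and 1784 in DUKs and values under the floor in DU6 and DBA. Rgs5, a marker of pericytes, had 1679 and 1654 against 1044 and a value under the floor, 1.58-fold apart, while a second Rgs5 probe set was under the floor in all 4 lines.

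**Figure D3:**
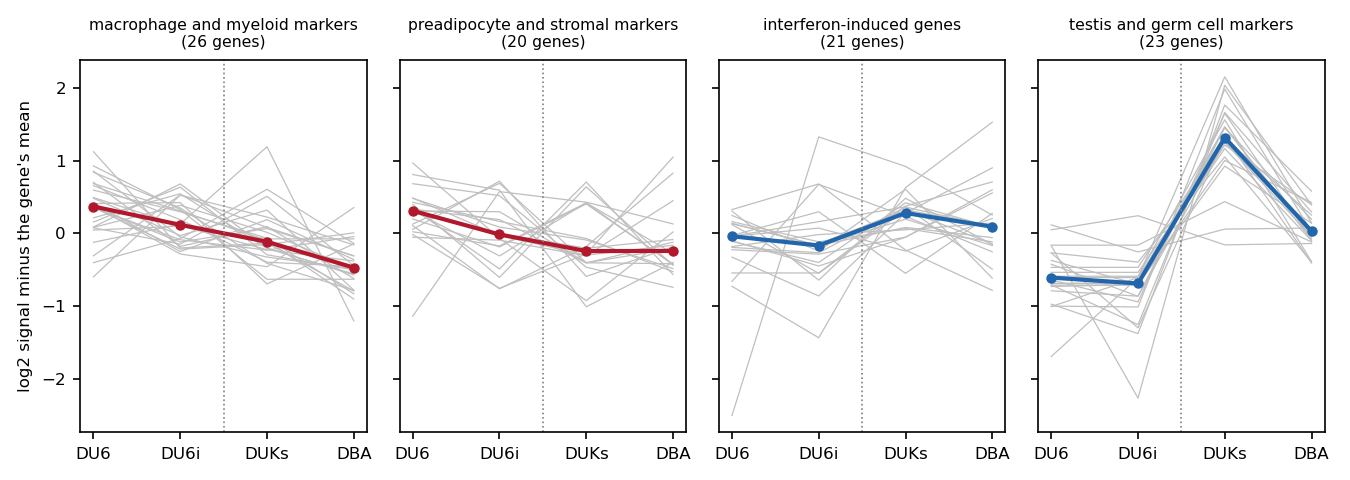
Log2 signal of each tested gene, minus the gene's mean over the 4 pools, in DU6, DU6i, DUKs and DBA for 4 lists; grey lines are genes and the coloured line is their median. The macrophage median goes from 0.37 in DU6 to -0.47 in DBA, whereas the germ cell median is 1.32 in DUKs and 0.03 in DBA.

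Fatty acid oxidation was the metabolic list with the largest share separated. Of 18 genes, each above the floor on all 4 arrays, 9 were higher and 0 lower, with a median of 0.31 that was 0.19 without DU6i. Etfb, which passes electrons from acyl-CoA dehydrogenases to the respiratory chain, had 11789.7 and 11662 in DU6 and DU6i against 7476 and 7932 in DUKs and DBA, 1.47-fold apart. The medium-chain dehydrogenase Acadm had 27006 and 28795 against 22388 and 22602. Acadl, the long-chain enzyme, had 6613 and 7424 against 4658 and 5571. The sides did not overlap in these genes, and the gaps of the separated members other than Etfb were between 1.02-fold and 1.26-fold. Cpt1a, which admits fatty acids to the mitochondrion, did not separate, with 9469 and 7019 against 5880.0 and 10535. The summed signal was 193596 and 219111 against 160237 and 176889. In the citric acid cycle 2 of 13 genes and in the respiratory chain 4 of 27 were higher. Without DU6 these were 11 of 13 and 14 of 27, against 31.1% of all genes, with 0 and 4 lower, against 34.4%. Without DU6i they were 4 of 13 and 10 of 27, against 38.0%, with 4 and 10 lower, against 24.0%.

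Lipid storage genes gave a mixed picture. Of 15 genes of lipolysis and lipid uptake 6 were higher and 0 lower, and of 13 genes of fatty acid and triglyceride synthesis 5 were higher and 0 lower; both medians were 0.07. Without DU6 the medians were 0.66 and 0.32 and without DU6i 0.26 and 0.32, and lipid uptake was at 0.27 without DUKs. Thrsp, a regulator of fatty acid synthesis, had 22414 and 19123 against 11173 and 14271, 1.34-fold apart. Me1, the malic enzyme that supplies NADPH, had 11266 and 13028 against 8558 and 5942. Plin2, a coat protein of lipid droplets, had 21166 and 25230 against 17169 and 14762. The sides were apart in each, by log2 ratios of 0.42, 0.40 and 0.30. Fasn, the fatty acid synthase, did not separate, at 61926 and 40390.3 against 63666 and 37212. Mogat2, an acyltransferase of triglyceride synthesis, had 2774 and 1863 and was under the floor in the controls, at least 1.82-fold apart.

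A set of 20 genes of leptin, insulin and growth signalling and of fat cell identity was listed for the keywords of the labels. Of the 18 on the chips 14 were tested, 2 were higher, 0 were lower and 12 did not separate. Lep, which encodes leptin, the hormone that reports fat stores to the brain, had 12446 in DU6 and 27777 in DU6i, against 8697 in DUKs and 3837 in DBA. The sides did not overlap and the smallest ratio was 1.43-fold. The mean log2 signals were 14.18 ± 0.82 (SD, n = 2 lines) and 12.50 ± 0.83, so the lines within each side differed by more than that gap. Igf1, the growth factor induced by growth hormone, had 3960.2 and 4932 against 3736 and 3669, a gap of 1.06-fold. Ghr, the growth hormone receptor, did not separate, at 1534 and 7106 against 3710 and a value under the floor.

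Adipoq (adiponectin), Retn (resistin), Fabp4, Lipe (hormone-sensitive lipase) and Scd1 were in one order, DU6 lowest, then DBA, DUKs and DU6i. Adipoq had 21044, 28894, 36670 and 48251 in that order, and Retn 13502, 21591, 28046 and 42936. This is also the order of the 99th percentile of the chip A arrays and of their pyruvate carboxylase percent, and the part of either in it was not tested. The lines of a side thus differed while the side means did not, with differences of -0.03 in Adipoq and -0.03 in Retn on the log2 scale. Slc2a4, the insulin-responsive glucose transporter, was separated by 1 of 2 probe sets, with 8129 and 7286 against 5584 and 5341. The other had 7895 and 7265 against 4869 and 7542. Lepr, Insr, Irs1 and Igfbp3 were under the floor in all 4 lines.

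**Figure D4:**
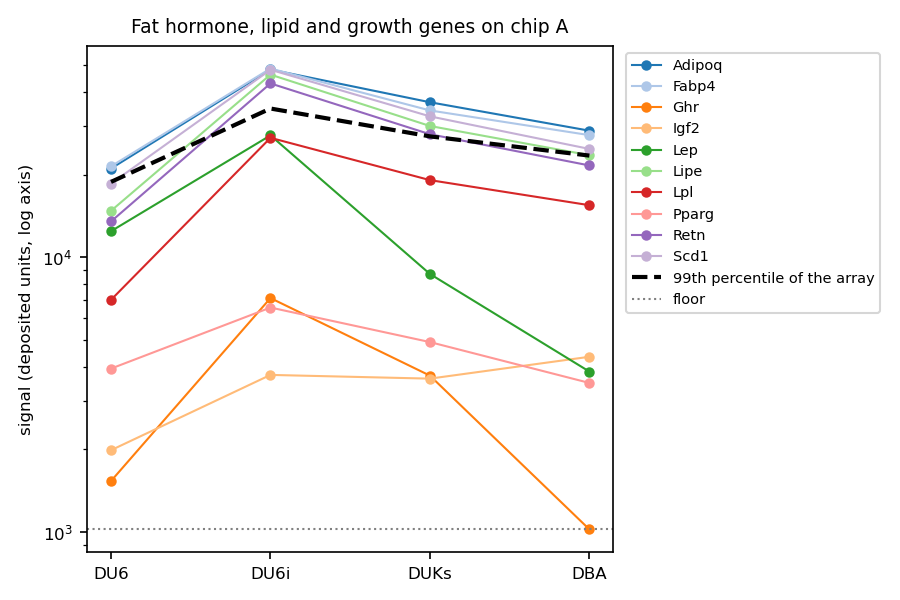
Signals of the tested keyword genes of chip A in the 4 lines (log axis), with the 99th percentile of each array as a dashed line and the floor dotted; signals under the floor are drawn at it. Adipoq, Fabp4, Retn, Lipe, Lpl and Scd1 rank the lines as the dashed line does but rise more steeply from DU6 to DU6i. Lep is lower in both DUKs and DBA than in DU6.

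The gene furthest apart among those higher was Hfe, which limits iron uptake through the transferrin receptor and hepcidin. It had 8183 in DU6 and 8227 in DU6i, and was under the floor in both controls, at 1232 and 1922, at least 3.62-fold apart. The list of iron and heme genes as a whole was near the background, with 3 of 18 higher and 2 lower. Slc6a13, which carries GABA and taurine into cells, had signals of 3987 and 6785 against 1259.9 and 1567.5, 2.54-fold apart, with mean log2 signals of 12.34 ± 0.54 (SD, n = 2 lines) and 10.46 ± 0.22. Myl1, a light chain of fast muscle myosin, had 3025 and 2952 against 1435 and 1354, 2.06-fold apart. Of the 10 tested skeletal muscle genes 3 were higher and 0 lower, and Ckm, the muscle creatine kinase, did not separate.

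Cdr2, a cytoplasmic protein known as an antigen in cerebellar autoimmunity, had 3926 and 3987 in DU6 and DU6i against 1895 and 1934 in DUKs and DBA. It was 2.03-fold apart and had, of the named higher genes at 2-fold measured on all 4 arrays, the smallest spread within the sides, with log2 SDs of 0.016 and 0.021. Stx2, a syntaxin of membrane fusion, had 6033 and 7432 against 2473 and 3133. Ppm1m, a protein phosphatase, had 6225 and 6433 against 3321 and 1483. Cbr2, a carbonyl reductase, had 13428 and 11187 against 5026 and 6371, and the RNA helicase Mov10 had 5820.3 and 4780.0 against 2787 and 2517. Dhrs7b, an enzyme of ether lipid synthesis in peroxisomes, had 3833 and 3777 against 2096 and 2247. In these genes the sides were 1.68-fold to 1.93-fold apart. Erdr1 was higher by both of its probe sets, 4008 and 4397 against 2379 and 2361 by one, and 10326 and 9979 against 6136 and 4359.6 by the other. Gsto1, an omega-class glutathione transferase, had 7665 and 5479.7 against 3636 and 2305, 1.51-fold apart. Itgb2, the beta chain of leukocyte integrins, had 4288 and 4811 and was under the floor in the controls, at least 1.90-fold apart.

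**Figure D5:**
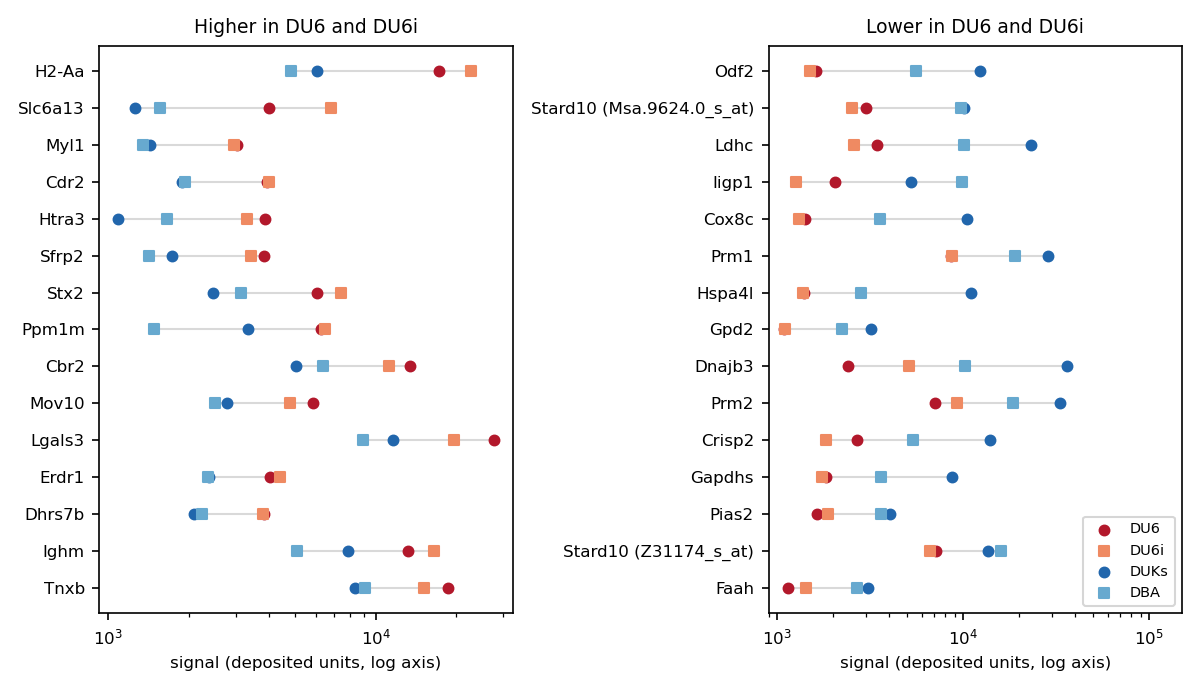
Deposited signals (log axis) of the 15 higher and 15 lower named probe sets with the largest smallest ratio among those above the floor on all 4 arrays; red and orange points are DU6 and DU6i, dark and light blue points DUKs and DBA. On the right DUKs lies far beyond DBA in Odf2, Ldhc, Cox8c, Hspa4l and Dnajb3, whereas the control lines nearly coincide in Stard10.

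Class II MHC genes, which present peptides to helper T cells, differed by probe set. H2-Eb1 had 884 and 1089.7 in DU6 and DU6i, under the floor, against 8627 in DUKs and 12279 in DBA, at least 3.82-fold lower. Its second probe set had 3544 and 3691 against 4111 and 5084, a gap of 1.11-fold in the same direction. H2-Aa had 5 probe sets. The one with the largest gap had 17196 and 22619 against 6005 and 4833, 2.86-fold higher in the selected lines. Another had 14350.5 and 15876 against 20637 and 24396, 1.30-fold lower, a further one was 1.02-fold lower, and the other two did not separate. H2-Ab1 had 12201 and 13464 against 8015 and 10786, higher by 1.13-fold. Cd74, the invariant chain that travels with class II proteins, did not separate. These probe sets do not give one direction for class II transcripts.

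Interferon-induced genes were lower in the selected lines in 8 of 21 genes and higher in 1, with a median of -0.20 that was -0.13 without DU6i, -0.30 without DBA and 0 without the filter on dim signals. Of the 14 above the floor on all 4 arrays 4 were lower and 1 was higher. Iigp1, a GTPase that attacks the vacuoles of intracellular pathogens, had 2056 in DU6 and 1258 in DU6i, against 5268 in DUKs and 9845 in DBA. It was 2.56-fold lower, with mean log2 signals of 10.65 ± 0.50 (SD, n = 2 lines) and 12.81 ± 0.64. Igtp, a GTPase of the same family, was under the floor in both selected lines and had 1936 and 2439 in the controls, at least 1.89-fold lower. Psmb9, a subunit of the immunoproteasome that cuts peptides for class I presentation, had 4019 and 2774 against 6122 and 9416 on chip B, 1.52-fold lower. On chip A it had 1839.7 and 1556 against 2482 and 3821, 1.35-fold lower. In each of these DBA was the brightest pool. Psmb8, its partner subunit, had 5599.6 and 5367 against 6316 and 9625. Irgm1, Ifi47, Ifi202b and the transcription factor Irf1 were lower by gaps of 1.03-fold to 1.22-fold. Ifngr1, the interferon-gamma receptor, was the gene that went the other way, with 6114 and 7809.5 against 4156 and 2829.

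The 12 other tested genes of the list did not separate. They included Isg15 and Ifit3, which respond to type I interferon, and Ifi27, with 3127 in DU6 but 44633 in DU6i, 33667 in DUKs and 21161 in DBA. The macrophage median, in cells that respond to interferon-gamma, was highest in DU6 and lowest in DBA (0.37 and -0.47), while Iigp1 and Psmb9 were brightest in DBA. The part of cell composition in either was not tested.

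Promoter stretches of 5 of these genes are shown because interferons act through 2 known elements. The 5 were picked among genes with a match, so each stretch holds one. Matches in Ifi202b, which was lower, and in Ifit3, which did not separate, are not printed. The interferon-stimulated response element was searched as GAAA, any 2 bases and GAAA again, the gamma-activated site as TTCNNNGAA, on both strands in the 250 bases before the start. Sequences are from RefSeq, build GRCm38.p6, on the strand of the gene, with matches in capitals. They lie at chr11:58199456-58199555 (Igtp, plus strand), chr11:48871421-48871520 (Irgm1, minus strand), chr11:53769878-53769977 (Irf1, plus strand), chr17:34198052-34198151 (Psmb8, plus strand) and chr4:156200836-156200935 (Isg15, minus strand). The first 4 genes were lower in the selected lines, and Isg15 did not separate.
Igtp: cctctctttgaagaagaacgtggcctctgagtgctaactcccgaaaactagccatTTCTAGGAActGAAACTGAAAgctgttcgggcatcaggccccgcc
Irgm1: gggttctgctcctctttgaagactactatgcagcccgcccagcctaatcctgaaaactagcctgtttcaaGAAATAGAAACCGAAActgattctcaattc
Irf1: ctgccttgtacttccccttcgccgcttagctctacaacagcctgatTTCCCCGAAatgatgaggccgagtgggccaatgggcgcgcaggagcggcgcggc
Psmb8: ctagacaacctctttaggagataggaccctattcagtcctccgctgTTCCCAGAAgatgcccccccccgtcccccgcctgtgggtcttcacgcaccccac
Isg15: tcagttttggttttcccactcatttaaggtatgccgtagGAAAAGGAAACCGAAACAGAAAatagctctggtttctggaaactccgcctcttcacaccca

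Igtp holds both elements side by side, Irgm1 a pair of overlapping response elements, and Irf1 and Psmb8 a gamma-activated site. Isg15 holds 3 overlapping response elements and no gamma-activated site in this stretch. Of the 18 list genes with a promoter entry, 7 held a response element and 6 a gamma-activated site. Counted in the same way, by gene, the shares were 3.46% and 8.13% of all 27025 genes with an entry. Among the 2675 of these that were tested they were 3.51% and 5.98%. The gamma-activated site was found in 4 of the 7 lower genes and 2 of the 10 not separated, the response element in 2 of the 7 and 5 of the 10. A match is a run of letters and does not show that a factor binds there.

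Transcripts of the testis and sperm made up the other large group lower in DU6 and DU6i. Of 23 tested genes of the germ cell list 20 were lower and 1 was higher, with a median difference of -1.38. For 8 of the 23 one side was wholly under the floor, and of the 12 above it on all 4 arrays 10 were lower and 1 higher. Ldhc, the lactate dehydrogenase of sperm, had 3450.4 and 2604 in DU6 and DU6i against 23076 in DUKs and 10134 in DBA. It was 2.94-fold lower, with mean log2 signals of 11.55 ± 0.29 (SD, n = 2 lines) and 13.90 ± 0.84. Prm1, a protamine that packs sperm DNA, had 8576 and 8740.1 against 28545 and 19113, 2.19-fold lower, and Prm2 had 7051 and 9299.8 against 32957 and 18639.6. Hspa4l, a chaperone of the Hsp110 group, had 1388 and 1377 against 11011 and 2822, and Crisp2, a sperm protein of the acrosome and tail, 2679 and 1833 against 13877 and 5367. Each was about 2-fold apart at its smallest ratio, and DUKs was the brightest pool in each. Tnp1, which replaces histones in spermatids, had 14689 and 10822 against 47073 and 20147, and Dnajb3 2393 and 5091 against 36343 and 10297.

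The difference between the control lines was part of this pattern. The signal summed over the list was 99276 in DU6 and 87049.9 in DU6i, against 355566 in DUKs and 162099 in DBA. Without DUKs the list median was -0.68, and without DBA -2.02; without a selected line it was -1.41 or -1.37, and without the filter on dim signals -0.76. The one higher member was Hspb1, a small heat shock protein that fat and muscle also make. Cyp17a1, an enzyme of Leydig cells, did not separate and was above the floor at 1117 in DU6 and 2788 in DUKs. One probe set of Odf2, an outer dense fibre protein, had 1625 and 1508 against 12359 and 5550.1, 3.42-fold lower. A second Odf2 probe set had 6269 and 4841 against 6019 and 6082 and did not separate.

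Germ cell genes made up part of the lower probe sets. Of all 5267 probe sets tested, 25 were from the germ cell list. Of the 29 lower at 2-fold or more, 7 were from it, 13 carried other symbols and 9 had no single symbol. Among the others Cox8c, a testis form of a cytochrome oxidase subunit, had 1415 and 1305 against 10517 and 3596. Spa17, a sperm surface protein, was under the floor in the selected lines with 9995 and 5184 in the controls, and Pabpc2, a poly(A)-binding protein of the testis, was under it with 16236 and 4629.8. In DUKs the signal was above that in DBA for 24 of the 29 probe sets (82.8%), against 48.8% of all probe sets tested. It was at least 2-fold above for 13 (44.8%), against 5.89%. Of the 22 probe sets outside the germ cell list 8 were 2-fold higher in DUKs than in DBA. Over all sizes, 22 of the 703 lower probe sets were from the germ cell list and 4 from the male tract list, and 677 from neither. How much of the difference came from tissue other than fat in a pool was not tested.

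Epididymis and male tract genes did not follow the germ cell order. Of 12 tested, 4 were lower and 0 higher, with a median of -0.83 that was -0.038 without DU6i. Wfdc2, a secreted protein of the epididymis and other epithelia, had 1992 and 2463 against 4199.8 and 5014, 1.70-fold lower. Clu, clusterin, had 11218 and 16998 against 30355 and 19134. Adam7, an epididymal membrane protein, had 19574 in DU6 and 5914 in DU6i against 23896 and 21665. Gpx5, the epididymal glutathione peroxidase, was bright in DU6 (49126), DUKs (52044) and DBA (20753) and below 0 in DU6i. The summed signal was 181128 in DU6, 61782.2 in DU6i, 190204 in DUKs and 178172 in DBA, so that DU6i stood apart from the other 3 lines. Mesothelial and keratin genes were lower in 4 of 14 and higher in 1, with a median of -0.57 that was -0.19 without DU6i, -0.24 without DBA and -0.87 without DUKs. Wt1, a transcription factor of the mesothelium, had 4797 and 3928 against 6149.5 and 6683, and Upk3b had 3326 and 2787 against 5253 and 3942. Msln, mesothelin, had 1520 and 1536 and was under the floor in both controls.

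Outside these groups, Stard10, a lipid transfer protein, was lower by both of its probe sets. One had 2999.5 and 2515 in DU6 and DU6i against 10048 and 9766, 3.26-fold lower, with mean log2 signals of 11.42 ± 0.18 (SD, n = 2 lines) and 13.27 ± 0.03. The other had 7113 and 6659.8 against 13654 and 15926, 1.92-fold lower. DUKs and DBA lay close together in both, unlike in the germ cell genes. Gpd2, the mitochondrial glycerol-3-phosphate dehydrogenase, had 1086 and 1098 against 3193 and 2221, 2.02-fold lower. Faah, which breaks down the endocannabinoid anandamide, had 1151 and 1427 against 3072 and 2694, 1.89-fold lower. Fdft1, the squalene synthase, had 5279 and 5663 against 10482 and 9471, 1.67-fold lower, with both sides tight. Pias2, a SUMO ligase, was lower by both probe sets, 1.95-fold and 1.56-fold.

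Slc2a3, a glucose transporter of neurons and sperm, was under the floor in the selected lines with 6529 and 3135 in the controls, at least 3.07-fold lower. A second Slc2a3 probe set was above the floor in DUKs alone, at 1906, and was not tested. Fbp1, an enzyme of gluconeogenesis, was under the floor in the selected lines with 4412 and 2768 in the controls, at least 2.71-fold lower. Of 18 tested genes of glucose metabolism these were the lower ones, and 4 were higher, among them Tpi1, the triosephosphate isomerase, with 48278 and 40883 against 28957 and 32993. Saa2, an acute-phase protein, was under the floor in DU6 and DU6i with 2081 and 2999 in DUKs and DBA, at least 2.03-fold lower. A second Saa2 probe set was under the floor in all 4 lines. The chemokine Ccl27a had 3353 and 1909 in the controls and was under the floor in the selected lines, at least 1.87-fold lower.

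Genes of cell division were lower in 7 of 25 and higher in 3, with a median of -0.08. Of the 14 above the floor on all 4 arrays 3 were lower and 2 higher, with a median of -0.0036. Without DBA the median over the 25 was 0.10, with 8 higher and 9 lower, against 36.2% and 27.8% of all genes. It was -0.29 without DUKs and -0.21 without DU6. Plk1, a mitotic kinase, was under the floor in the selected lines and had 3196 and 4329 in the controls, at least 3.12-fold lower. Mcm7, of the replication helicase, had 1598 and a value under the floor against 2888 and 3438, 1.81-fold lower. The Plk1 probe set is of the kind whose name ends in f_at, which by the maker's naming can read several related sequences. Probe sets of this kind also read H2-Aa, Prm1, Prm2, Myl1, Lgals3, Erdr1, Saa2, Wfdc2 and Fabp4, among others. Both Psmb9 probe sets and the Ighm probe set with the 1.67-fold gap are of this kind too.

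Chaperones were lower in 10 of 30 genes and higher in 3, with a median of -0.17 that was -0.29 without DUKs; 9 of the 27 above the floor on all 4 arrays were lower. Hspa4l and Dnajb3, named above, are in this list too. Hsp90aa1, the inducible Hsp90, had 9665 and 11946 in DU6 and DU6i against 19777 and 14779 in DUKs and DBA, and Dnajb1, an Hsp40, had 2726 and 3736 against 7778 and 4287. DUKs was the brightest pool in both. Ribosomal protein genes were lower in 8 of 37 and higher in 0, with a median of -0.12 that was -0.23 without DU6i and -0.21 without DBA. Rpl39l, a form of Rpl39 made in the testis, was under the floor in the selected lines with 4682 in DUKs. Rps24 had 32424 and 31845 against 40905 and 36157, and the gaps of the members other than Rpl39l were between log2 ratios of -0.03 and -0.28. After quantile normalization 5 of the 37 were lower, near the share of 13.7% among all genes in that setting.

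A gene read by more than one probe set gives a check on the same RNA. Of 204 higher probe sets whose gene had another tested one, 91 had it separated the same way (44.6%), 3 the opposite way and 110 not separated. Of 113 lower ones these were 42 (37.2%), 3 and 68. The background was 16.8% higher and 13.3% lower. At 1.5-fold or more 8 of 12 higher and 14 of 17 lower probe sets had the second separated the same way. The opposite way was seen in 0. All these counts are of probe sets, so a gene with both separated entered more than once. Dnajb3, Stard10, Pabpc2, Pias2 and Rangrf did so among the lower, and Erdr1 and Tnxb among the higher. In Dnajb3, Pabpc2, Pias2 and Rangrf both probe sets carry the name of the same sequence. Those of Pabpc2 and a Rangrf probe set had both selected lines under the floor and had to separate. At 2-fold or more it was 0 of 1 higher and 5 of 7 lower. The SD of one side difference, from 348 genes with 2 probe sets, was 0.23 on the log2 scale. A side difference is between the side means, and its median absolute value was 0.22 in 3974 probe sets. The smallest ratio is another measure and is not set against this SD. The SD covers differences between probe sets and not between animals or pools.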

How the data were processed

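Epididymal fat RNA of 4 pools, each of 20 males, was measured on 8 arrays. Each deposited value is an intensity per probe set on a linear scale, which the authors, per the labels, calculated with Data Mining Tool 1.2 and Microarray Suite 4.0.1 and scaled over all probe sets of an array. Negative signals occur. No replicate pool was analysed, so precision is limited by the number of arrays.

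The negative signals of a chip set its floor, at the 95th percentile of their absolute values. Signals under it were set to it before log2, and probe sets above it on at least 2 of 4 arrays were tested. Symbols came from the platform annotation: 5541 chip A and 2001 chip B probe sets had 1 symbol, 197 and 27 several, 791 and 4512 none, and an update by Entrez ID changed 0 symbols. Values were computed with Python 3.11.15, numpy 2.4.6 and pandas 2.3.3. The sides were tested with limma 3.58.1 in R 4.3.3 over all probe sets with Benjamini-Hochberg adjustment, and the procedure was tested on simulated data.

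Named, among probe sets with 1 symbol, were the 15 in each direction with the largest smallest ratio among those above the floor on all 4 arrays, the 10 with the largest bound among the other separated ones, list members separated by 1.5-fold or more and the keyword genes. The members, gene lists and rules were chosen with earlier results of these data known, and list members named beyond the rule were named after their values were seen. Promoters came from a RefSeq table, build GRCm38.p6. Alternatives were quantile normalization, a trimmed-mean rescaling, the mean over the probe sets of a gene, other floors and filters, log2(signal + floor), each chip alone and leaving out each line.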

Additional observations from a re-analysis of the deposited data

How the results depend on the processing

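Counts of separated probe sets depended on the treatment of dim signals. At 2-fold or more the 9 higher became 14 after quantile normalization, 23 with the floor halved, 2 with it doubled and 3 on log2(signal + floor). The 29 lower at 2-fold became 56 with the floor halved, 11 with it doubled, 13 on log2(signal + floor) and 15 when all 4 arrays had to be above the floor. At 1.5-fold the 76 higher became 45 with the floor doubled and 32 on log2(signal + floor), and the 88 lower became 158 with it halved, 40 with it doubled and 48 with all 4 arrays above it. The 703 lower of any size became 424 with the floor doubled, where fewer probe sets were tested. Chip A alone gave 464 lower, 53 at 1.5-fold and 4 higher and 18 lower at 2-fold. Chip B alone gave 259 higher and 239 lower, 21 and 35 at 1.5-fold and 5 and 11 at 2-fold. Without the filter limma called 5 of 13069 probe sets, of which 32.5% had no spread within the sides at the floor. With any one line left out, the lone line assumed to vary like the other side, limma called 0. Quantile normalization kept 791 of the 885 higher and 568 of the 703 lower probe sets separated the same way, among them the 9 and 29 at 2-fold. The 34 higher and 36 lower named separated probe sets also kept their direction under quantile normalization, most of them picked for large gaps. Other floors, filters and log2(signal + floor) keep the order of the lines and could not turn a direction. The trimmed mean was already 2500 on each array, so that rescaling left the signals nearly unchanged. The medians of 20 of the 43 gene lists changed sign with at least 1 line left out, most of them smaller than the spread within the sides. Of those larger than it, growth hormone and IGF genes ranged from -0.11 (without DBA; -0.10 without DU6i) to 0.26, class II MHC genes from -0.038 (without DBA) to 0.34, nerve markers from -0.0072 (without DU6) to 0.30 and antioxidant enzymes from -0.12 to 0.020 (without DU6). Brown and beige adipocyte markers, -0.40 over 4 genes, were 0.085 with the floor halved and 0.0037 with it doubled, and nerve markers -0.11 on chip B alone. The cause was not tested. No paired analysis was possible because each line has 1 pool and the labels give no number that ties a pool of one side to a pool of the other.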

Other observations

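Groups not described above are given beside the background of 18.2% higher and 13.5% lower genes. Of 28 proteasome subunits 6 were higher and 3 lower. Of 27 antioxidant and glutathione enzymes 3 were higher and 4 lower, among the lower ones Mt2, a metallothionein that binds zinc and copper, with a smallest log2 ratio of -0.41. Of 20 immediate early genes, which respond within minutes to stimuli and handling, 4 were higher and 0 lower. Cebpb, a transcription factor of early fat cell formation, had 7288 in DU6 and 6266 in DU6i against 2017 in DUKs and 4314 in DBA. Its relative Cebpd had 5449.9 and 4264 against 2956 and 3056. The sides did not overlap in either gene, by log2 ratios of 0.54 and 0.48. Of 13 complement genes 4 were higher and 2 lower.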
